A study of Mus musculus with 6 samples.

Results

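The 2′-5′-oligoadenylate synthetase (OAS) family was measured in bone marrow-derived macrophages of vimentin-deficient and wild-type mice through Oas1a, Oas2, Oas3, Oasl1 and Oasl2. Members were taken by gene symbol: a probe set counted if the platform annotation named exactly 1 symbol and that symbol was a member. This gave 5 probe sets for the 5 genes, 1 each, of 34945 probe sets with 1 symbol and 45101 in the table. All 5 lay above the filter on dim genes (a mean of 6.93 log2 units or more) and are among the 13445 genes tested. The family was proposed with the difference between these genotypes already known, and other Oas1 genes on the array are not members. The differences of the members are therefore a description and carry no test.

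The 3 vimentin-deficient and 3 wild-type samples were macrophages grown from femoral marrow of 17-week-old littermates on a C57BL/6 background, kept on chow. Both groups were cultured alike, at normal oxygen, with macrophage colony-stimulating factor from the supernatant of CMG14-12 cells and with no further stimulus named. The labels do not name the vimentin allele. The series as a whole concerns vimentin-deficient marrow transplanted into atherosclerosis-prone mice, whereas these arrays measured cultured macrophages, 1 sample per Affymetrix mouse expression array. As a check of the labels, Vim read 8.20, 6.96 and 7.13 on the vimentin-deficient and 13.41, 13.24 and 13.31 on the wild-type arrays, a 59.4-fold difference (limma adjusted p = 0.00414). Vimentin-deficient replicate 3 stands apart: its correlation with the other 5 arrays was 0.975 to 0.979 over probe sets, against 0.992 to 0.998 among the other pairs, so results are given with and without it.

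OAS enzymes bind double-stranded RNA, often of viral origin, and then join ATP into short oligoadenylates called 2-5A. These activate the ribonuclease RNase L, which cuts viral and cellular RNA and so limits viral growth. Macrophages keep a low level of OAS transcripts and raise it when interferon acts on them, through a promoter element read by transcription factors that interferon activates. That element is the interferon-stimulated response element (ISRE).

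Promoter windows of 250 bases before the annotated start were available for 4 members, Oas1a, Oas3, Oasl1 and Oasl2, and for 8 OAS genes in all (RefSeq, GRCm38.p6). An ISRE core was searched on both strands as 2 copies of GAAA with any 2 bases between them. It was found in 2 of the 4 members, Oas1a and Oas3, and in 2.98% of 32851 promoter windows of the same length. The 150 bases before the start are shown for these members, because they hold the match, and for Oas1g, because it is a near copy of Oas1a there. Capitals mark the ISRE core, and each sequence runs 5′ to 3′ on the strand of the gene, which is the minus strand for all 3. They lie at chr5:120907526-120907675 for Oas1a, chr5:120887614-120887763 for Oas1g and chr5:120777660-120777809 for Oas3.
Oas1a: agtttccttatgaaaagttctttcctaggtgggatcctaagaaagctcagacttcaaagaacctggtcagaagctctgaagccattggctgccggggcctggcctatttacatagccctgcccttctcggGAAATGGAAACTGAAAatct
Oas1g: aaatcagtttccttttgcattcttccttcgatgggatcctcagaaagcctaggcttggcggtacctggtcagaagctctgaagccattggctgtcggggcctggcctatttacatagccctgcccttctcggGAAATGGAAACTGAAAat
Oas3: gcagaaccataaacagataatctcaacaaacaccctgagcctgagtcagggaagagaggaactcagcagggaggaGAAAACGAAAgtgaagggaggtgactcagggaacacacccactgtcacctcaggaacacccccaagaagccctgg

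In Oas1a the overlapping matches GAAATGGAAA and GAAACTGAAA began 20 and 14 bases before the start. Oas1g held the same matches at 18 and 12 bases, and 82.8% of the aligned columns of the 250-base windows of Oas1a and Oas1g were identical. In Oas3 the single match GAAAACGAAA began 75 bases before the start. The start in this table is not the outermost annotated one: the gene reached 19 bases further for Oas1a and 25 bases further for Oas3, 97 for Oasl1 and 8 for Oasl2, so the windows of Oasl1 and Oasl2 are those of an inner start and of the Oas1a matches the first crosses the outer start by 1 base while the second lies inside the gene. A core was also found in Oas1c, on the opposite strand, 114 and 108 bases before its start. A GAS motif, searched as TTCNNNGAA, was found in Oas1a alone among these 8 genes, 98 bases before the start, and in 2306 windows, 7.02% of all. A match is a run of letters and not a measured binding site, and the array values do not show which of these stretches was bound.

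**Figure D1:**
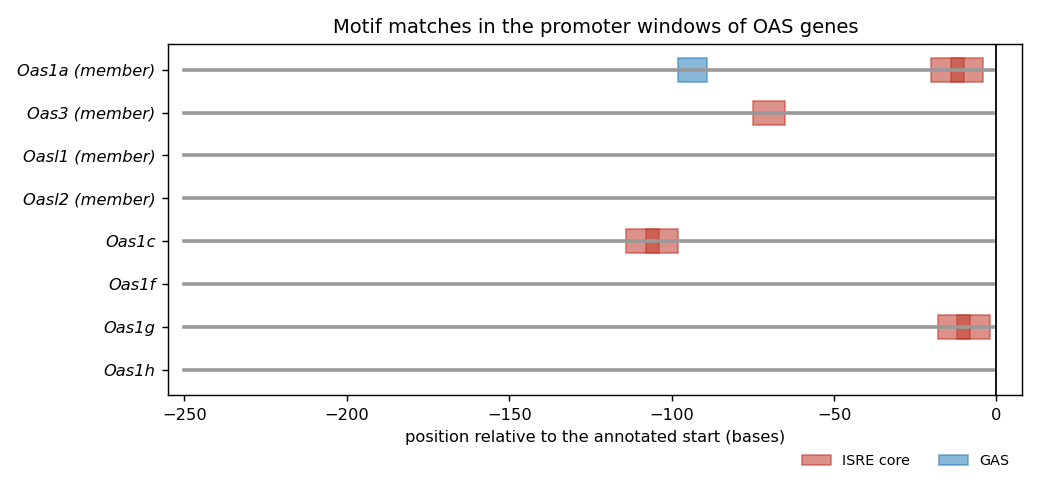
Positions of ISRE core (red) and GAS (blue) matches in the 250 bases before the annotated start (x axis, bases, start at 0) of the 8 OAS genes with a promoter entry, members at the top. Oas1a and Oas1g hold overlapping ISRE cores next to the start, Oas3 holds 1 core 75 bases before it, and Oasl1 and Oasl2 hold none in this window.

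All 5 members were higher in vimentin-deficient macrophages, and for each of them all 3 vimentin-deficient arrays lay above all 3 wild-type arrays. Among all genes tested, 5.32% were higher without overlap. Because the members were chosen with this contrast known, nothing is read from 5 of 5. The median log2 fold change of the 5 was 1.29, against -0.02 over all genes tested, with members from 0.51 to 1.66; without vimentin-deficient replicate 3 it was 0.84, against -0.01. In RNA of whole cultures, more cells of an expressing type and more RNA per cell cannot be told apart.

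Oas1a encodes a small enzyme with a single OAS unit. Its probe set read 11.06, 11.19 and 11.46 log2 units on vimentin-deficient replicates 1, 2 and 3, and 10.29, 10.27 and 10.28 on the wild-type arrays. The wild-type arrays spanned 0.016 log2 units, the narrowest range of the family, and the lowest vimentin-deficient array stood 0.77 above the highest of them. The means were 11.23 ± 0.20 and 10.28 ± 0.01 (SD, n = 3), a log2 fold change of 0.96 (SE 0.11, 1.94-fold). Oas1g itself is not analysed here, and whether its RNA adds to the Oas1a signal was not tested.

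Oas2 encodes a larger enzyme with a duplicated OAS unit. Its values were 9.42, 9.37 and 11.32 on the vimentin-deficient arrays and 8.70, 8.80 and 8.73 on the wild-type arrays. Replicates 1 and 2 stood 0.68 and 0.63 above the wild-type mean and replicate 3 stood 2.57 above it. The log2 fold change of 1.29 (SE 0.49, 2.45-fold) became 0.65 (SE 0.08, 1.57-fold) without replicate 3. The SD of the vimentin-deficient arrays, 1.11, was the widest of the 5 members.

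Oas3 encodes the largest enzyme of the family, which prefers long double-stranded RNA. It read 10.11, 10.30 and 10.78 on the vimentin-deficient arrays and 8.70, 9.08 and 8.90 on the wild-type arrays. The groups were separated by 1.03 log2 units, more than the range within either group (0.67 and 0.39). The log2 fold change was 1.50 (SE 0.19, 2.84-fold), and 1.31 (SE 0.11, 2.48-fold) without vimentin-deficient replicate 3.

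Oasl1 and Oasl2 encode OAS-like proteins that end in ubiquitin-like domains. Oasl1 has no synthetase activity and is known as a brake on the translation of the transcription factor Irf7. It was the dimmest member, at 7.77, 7.63 and 7.92 on the vimentin-deficient and 7.31, 7.22 and 7.27 on the wild-type arrays. Its log2 fold change was 0.51 (SE 0.08, 1.42-fold), with a gap of 0.32 between the groups. A probe set near the filter level, as this one, holds an unknown share of background, which can compress its fold.

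Oasl2, which keeps synthetase activity in the mouse, had the largest difference of the 5. It read 10.85, 10.87 and 11.90 on the vimentin-deficient arrays and 9.32, 9.73 and 9.59 on the wild-type arrays. The log2 fold change was 1.66 (SE 0.29, 3.15-fold), with a gap of 1.12 between the groups. Replicates 1 and 2 differed by less than 0.1, while replicate 3 stood 1.05 above their mean.

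**Figure D2:**
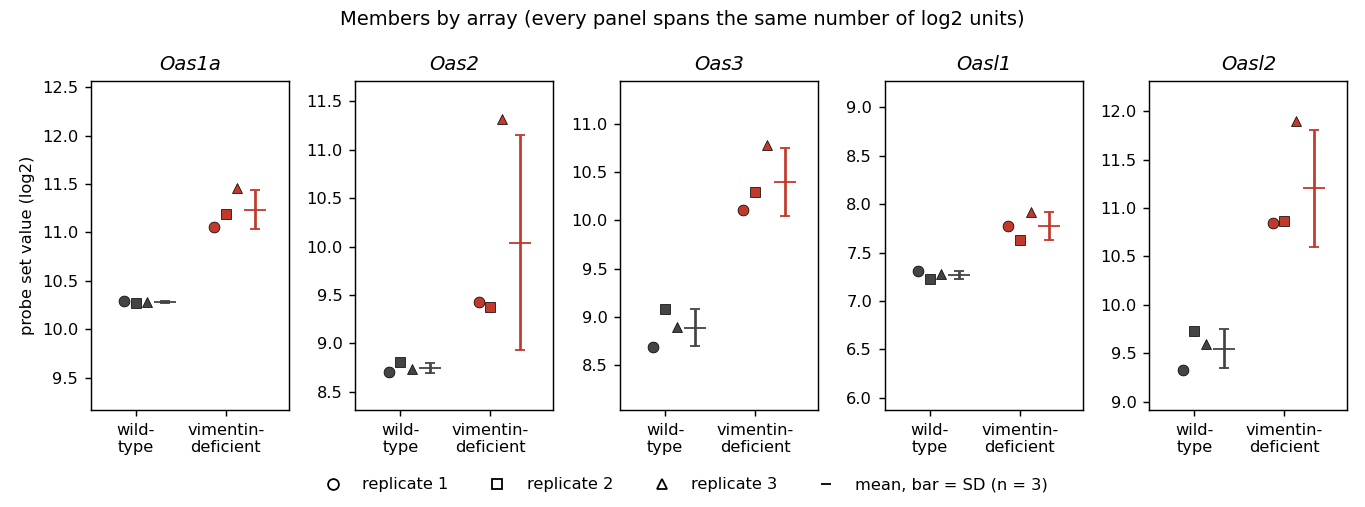
Probe set value (y axis, log2) of each member on the 3 wild-type and 3 vimentin-deficient arrays, 1 point per array, with the mean and SD (n = 3) beside each group. In each panel the red points lie above the grey ones, and for Oas2 and Oasl2 replicate 3 stands well above the other two.

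Ordered by log2 fold change, the members ran Oasl2, Oas3, Oas2, Oas1a and Oasl1. The first 4 did not differ from their neighbours in this order beyond the error: the differences of 0.15, 0.21 and 0.34 log2 units were smaller than the larger SE of each pair. Oas1a and Oasl1 differed by 0.45, against an SE of 0.11 for Oas1a. The order changed without vimentin-deficient replicate 3, to Oas3, Oasl2, Oas1a, Oas2 and Oasl1, as Oas2 moved from the third to the fourth place. Oas3 and Oasl2 were then within 0.003 of each other, at 1.31 each, while the next steps down, of 0.46 from Oasl2 to Oas1a, 0.19 to Oas2 and 0.22 to Oasl1, were larger than the larger SE of each pair. Levels of different probe sets depend on the probes, and no order of expression level is given.

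Vimentin-deficient replicate 3 was the highest array of its group for 5 of 5 members and for 33.2% of genes tested. Relative to the mean of replicates 1 and 2, 126 genes tested were over 1 log2 unit higher on it and 230 over 1 log2 unit lower. The members were 1.92 (Oas2), 1.05 (Oasl2), 0.58 (Oas3), 0.34 (Oas1a) and 0.22 (Oasl1) higher on it. For Oas2 99.9% of genes tested had a smaller difference, and for Oasl1 85.4%. The part of whatever sets this array apart in the size of the family's differences was not tested. On the other two vimentin-deficient arrays the median of the 5 members stood 0.78 and 0.91 above the wild-type mean, against 1.89 on replicate 3.

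With all 6 arrays, 0 of 5 members passed limma at an adjusted p of 0.05, while 0.0223% of all genes did (3 of 13445, all lower), and 5 of 5 had an unadjusted limma p under 0.05, as did 7.97% of all genes. Without vimentin-deficient replicate 3, 5 of 5 passed, where 2.34% of genes tested were called in either direction (315 of 13445) and 1.31% were called higher (176). With array quality weights 4 of 5 passed, where 0.692% of genes tested were called, 0.387% higher and 0.305% lower. These counts are descriptions, since the members were chosen on this contrast. The 4 members other than Oas2 kept a log2 fold change between 0.43 and 1.84 whichever array was left out, and Oas2 ranged from 0.65 to 1.63.

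**Figure D3:**
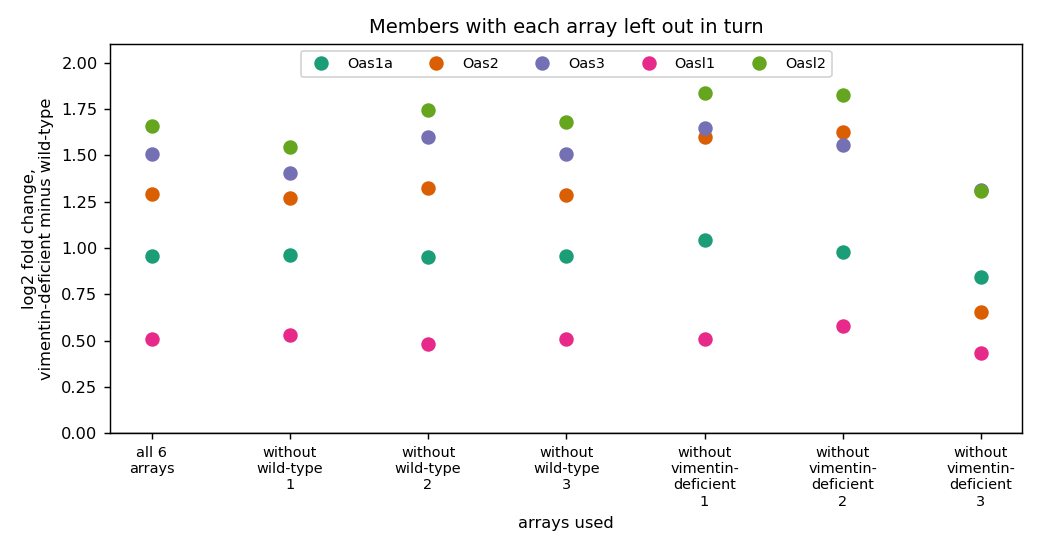
Log2 fold change of each member (y axis, vimentin-deficient minus wild-type) with all 6 arrays and with each array left out in turn (x axis). Oas2 falls from 1.29 to 0.65 without vimentin-deficient replicate 3, where the points of Oas3 and Oasl2 coincide at 1.31, and the other members move less.

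Within the wild-type arrays the members did not vary alike. Oas2, Oas3 and Oasl2 were lowest on replicate 1 and highest on replicate 2, an order shared by 18.9% of all genes tested. Oas3 spanned 0.39 and Oasl2 0.40 log2 units across these arrays. Oas1a and Oasl1 were lowest on replicate 2 and highest on replicate 1, over ranges of 0.02 and 0.09. The wild-type spread of Oas3 and Oasl2 was thus wider than that of the other 3 members.

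The other Oas1 genes tested had log2 fold changes between -0.05 and 0.25. They are a run of duplicated genes next to Oas1a on chromosome 5, and several are thought to lack synthetase activity. Of 7 such genes 5 were measured and 4 tested, of which 0 passed limma at an adjusted p of 0.05. Of these 4, 1, Oas1b, had an unadjusted limma p under 0.05, as did 7.97% of all genes. Oas1b read 7.93, 7.98 and 8.26 on the vimentin-deficient and 7.81, 7.89 and 7.73 on the wild-type arrays. Its arrays did not overlap, and the difference was 0.25 log2 units (SE 0.10, limma adjusted p = 0.607), or 0.14 without vimentin-deficient replicate 3. Oas1c, whose window holds an ISRE core, had 0.16 (SE 0.07) with overlapping groups. Oas1e had 0.01 (SE 0.05) and Oas1f -0.05 (SE 0.06). Oas1h lay under the filter, at 6.34 in both groups. These probe sets are dim, and signal from near copies cannot be separated by symbol alone.

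Of the genes around 2-5A, 0 passed the test. RNase L itself is not analysed here. Abce1, which encodes the RNase L inhibitor and a ribosome recycling factor, had a log2 fold change of 0.15 (SE 0.16), with 9.97, 9.60 and 9.55 on the vimentin-deficient and 9.80, 9.34 and 9.51 on the wild-type arrays. Pde12, a phosphodiesterase that degrades 2-5A, had 0.05 (SE 0.11). Both groups of arrays overlapped for these genes. Akap7, which has a domain related to 2-5A phosphodiesterases, was lower on all 3 vimentin-deficient arrays (7.86, 7.81 and 7.79 against 8.14, 8.15 and 8.06), as were 10.1% of all genes tested. Its log2 fold change was -0.29 (SE 0.05, limma adjusted p = 0.232). Cgas, which encodes the DNA sensor with a fold like that of OAS enzymes, had 0.37 (SE 0.12, limma adjusted p = 0.536) with no overlap. Of this list of 5 genes 4 were tested, and 0 passed with or without vimentin-deficient replicate 3. With 6 arrays 2 had an unadjusted limma p under 0.05, as did 7.97% of all genes.

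Sensors of double-stranded RNA, the ligand of the OAS enzymes, and their partners had higher means for 11 of 12 genes, with a median log2 fold change of 0.37 (9 of 12 and 0.26 without vimentin-deficient replicate 3). Means were higher for 39.6% of all genes tested. Groups did not overlap for 7 of the 12, where 5.32% of all genes tested were higher without overlap. With 6 arrays 0 passed limma over all genes, while 7 had an unadjusted p under 0.05, as did 7.97% of all genes. Zbp1, a sensor of Z-form nucleic acid, read 8.45, 8.66 and 9.62 on the vimentin-deficient and 7.66, 7.80 and 7.83 on the wild-type arrays (log2 fold change 1.15, SE 0.28, limma adjusted p = 0.358). The RNA helicase genes Ddx58 (RIG-I), Dhx58 (LGP2) and Ifih1 (MDA5) had 0.91 (SE 0.20), 0.79 (SE 0.16) and 0.75 (SE 0.25). Eif2ak2, the kinase PKR, had 0.46 (SE 0.09), the RNA-editing enzyme gene Adar 0.49 (SE 0.20; 0.25 without vimentin-deficient replicate 3) and Tlr3 0.28 (SE 0.05). The adaptor and kinase genes behind these sensors had smaller values with overlapping groups: Mavs 0.13, Tbk1 0.17, Ticam1 0.04 and Irf3 -0.04 (0.03, 0.09, -0.09 and -0.11 without vimentin-deficient replicate 3). Trim25, which encodes a ligase that activates RIG-I, went from 0.17 to -0.12 without that array. Without vimentin-deficient replicate 3, 5 of the 12 rose (limma adjusted p below 0.05), where 1.31% of all genes tested did. These were Zbp1 by 0.79, Ddx58 by 0.67, Dhx58 by 0.61, Ifih1 by 0.43 and Eif2ak2 by 0.37 log2 units. All 12 were highest within their group on replicate 3, as were 33.2% of all genes tested.

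In the chain from the interferon receptor to OAS promoters, 4 genes were higher without overlap: Stat2, Irf9, Irf7 and Usp18. Among all genes tested 5.32% were. Of the 12 genes of this list 10 were tested, and the others are not analysed here. Ifnar1 had a log2 fold change of -0.10 (SE 0.10), and Ifnar2 had -0.23 (SE 0.09) with all 3 vimentin-deficient arrays below the wild-type ones. The receptor kinase genes Jak1 and Tyk2 had -0.04 and 0.02. The transcription factor genes Stat2 and Irf9 had 0.80 (SE 0.20) and 0.48 (SE 0.15). Irf7 read 9.33, 9.41 and 10.16 on the vimentin-deficient and 8.12, 8.35 and 8.33 on the wild-type arrays, or 1.37 higher on the log2 scale (SE 0.22, limma adjusted p = 0.179). Usp18, which encodes a brake on the receptor, had the largest value of these lists, 1.99 (SE 0.28, limma adjusted p = 0.166). Irf1 had 0.09 (SE 0.24; -0.17 without vimentin-deficient replicate 3) and Socs1 0.06 (SE 0.05). With 6 arrays 0 of 10 passed, and 5 had an unadjusted limma p under 0.05, as did 7.97% of all genes. Without vimentin-deficient replicate 3, Usp18 (1.67), Irf7 (1.11) and Stat2 (0.56) rose, where 1.31% of all genes did.

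Transcripts of the interferons themselves read low, under the filter level or not far above it. Of 9 ligand genes 5 had a probe set and 2 passed the filter. Ifnb1 lay under it on each array, at 6.26, 6.31 and 6.19 on the vimentin-deficient and 6.40, 6.36 and 6.33 on the wild-type arrays. Ifna1 had a mean of 7.02 in both groups, and Ifna2 had 7.25 in vimentin-deficient and 7.22 in wild-type samples. The array medians were 7.23 to 7.25. Ifna1 and Ifna2 had log2 fold changes of 0.00 (SE 0.08) and 0.03 (SE 0.07) with overlapping groups, and neither had an unadjusted limma p under 0.05. Values near or under the filter level cannot be told from background on this array, and protein in the medium was not measured.

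Across the 5 lists, 32 genes were tested, 13 were higher without overlap and 2 lower, where 5.32% of all genes were higher and 10.1% lower. With 6 arrays 0 passed limma at an adjusted p of 0.05, where 0.0223% of all genes tested did. An unadjusted limma p under 0.05 was found for 15, 13 of them higher, and for 7.97% of all genes in either direction. Without vimentin-deficient replicate 3, 8 rose and 0 fell, where 1.31% of all genes rose and 1.03% fell. The lists were drawn up with results of these arrays known.

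**Figure D4:**
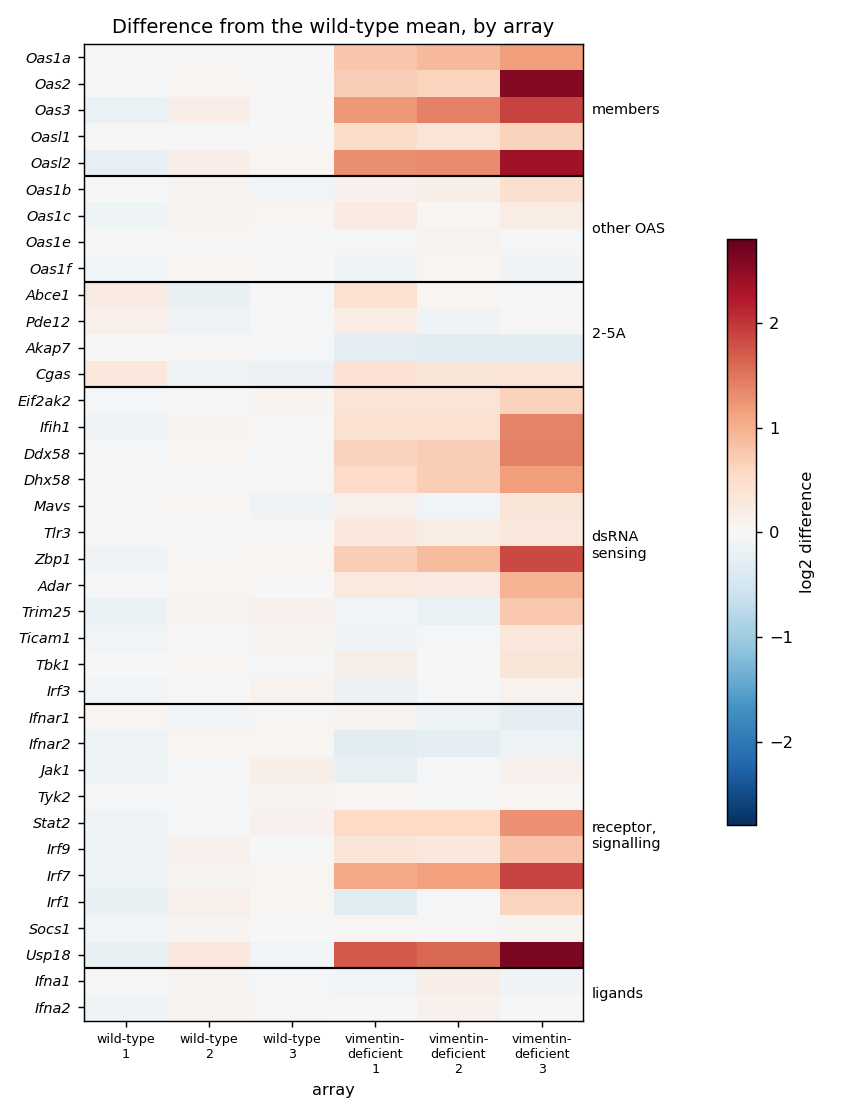
Difference from the wild-type mean (colour, log2 units) on each array (x axis) for the 5 members and the 32 genes tested of the pathway lists (y axis, 1 row per gene). The members, sensors such as Zbp1 and Ddx58, and Irf7 and Usp18 are red on all 3 vimentin-deficient arrays and darkest on replicate 3, while the receptor chains and ligands stay pale.

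**Figure D5:**
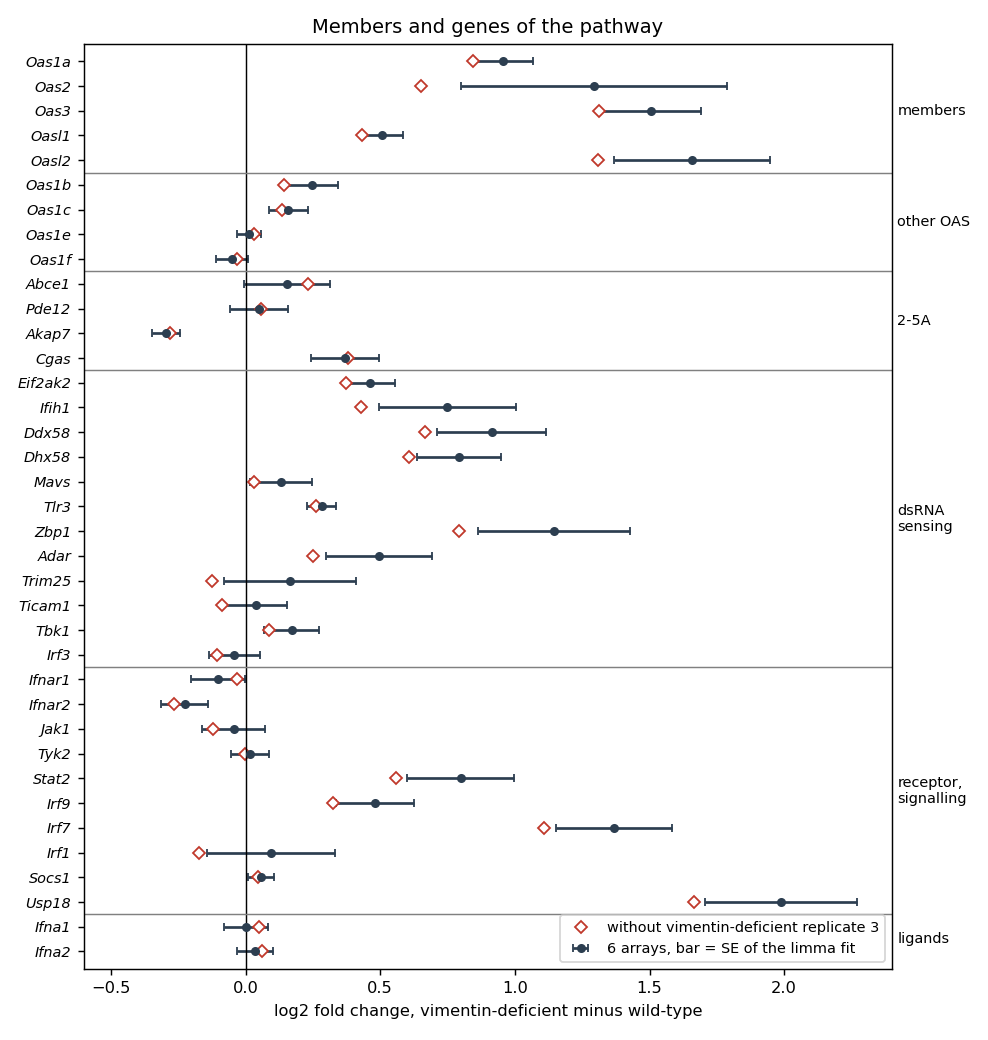
Log2 fold change (x axis, vimentin-deficient minus wild-type) of the members and the pathway genes tested, with 6 arrays (filled, bar = SE of the limma fit) and without vimentin-deficient replicate 3 (open). Oas3, Oasl2, Irf7 and Usp18 stay above 1 in both, and Oas2 falls from 1.29 to 0.65.

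Genes with the profile most like the family were sought over the 6 arrays, as the mean absolute difference between a gene's profile and the mean profile of the 5 members, each taken from its own wild-type mean. The 8 closest of the other genes tested were Rnf213 (0.07 log2 units), Zbp1 (0.08), Xaf1 (0.08), Phf11d (0.08), Irf7 (0.11), H2-T24 (0.12), Ifi47 (0.13) and Irgm1 (0.13). Rnf213 encodes a giant ubiquitin ligase, and Ifi47 and Irgm1 encode interferon-inducible GTPases. Rnf213 read 10.90, 10.71 and 11.63 on the vimentin-deficient and 9.89, 10.12 and 10.04 on the wild-type arrays. These genes were picked by their values on the same arrays, so their likeness is a description. Among the members themselves, Oas1a lay closest to the family mean (0.14) and Oasl1 farthest (0.38).

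All 5 members lie on chromosome 5, in 2 clusters: Oasl2 beside Oasl1, and Oas2, Oas3 and Oas1a with the other Oas1 genes. Of the 5 nearest genes tested on each side, 20 in all, 0 were higher without overlap and 3 were lower. Among all genes tested 5.32% were higher and 10.1% lower, so the counts of the 20 lay near these shares. The log2 fold changes of the 20 ran from -0.21 for Acads to 0.28 for Trafd1, with a median of -0.02. None of the 20 passed limma with 6 arrays or without vimentin-deficient replicate 3, and 0 had an unadjusted p under 0.05 with 6 arrays. Trafd1, a neighbour that encodes a regulator of Toll-like receptor signalling, read 9.94, 10.07 and 10.91 on the vimentin-deficient and 9.79, 10.13 and 10.14 on the wild-type arrays, so that replicate 3 alone stood out.

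Beyond the family, genes with an ISRE core were compared with the rest. Of the genes tested other than the members, 335 had the core in the 250-base window and 10494 had a window without it. Among the first, 43 (12.8%) were higher without overlap and 17 (5.07%) lower, against 5.14% higher and 10.3% lower among the second. Their median log2 fold changes were close, 0.00 and -0.02. Without vimentin-deficient replicate 3, 22 of the genes with the core rose (6.57%), against 1.11% of those without. In the pathway lists, however, the core was in 1 of the 9 genes with an entry that were higher without overlap, Stat2, and in 4 of 18 others, Oas1c, Socs1, Ifna1 and Ifna2. It was in 1 of 6 genes with the most alike profile, Irgm1. These shares are descriptions.

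The cell types were checked on the same arrays. Of 8 macrophage markers, Csf1r ran from 13.05 to 13.63 and Lyz2 from 13.93 to 14.22 over the 6 arrays. Both were highest on vimentin-deficient replicate 3. Cd14 read 12.76, 12.59 and 13.16 on the vimentin-deficient and 12.01, 12.12 and 12.12 on the wild-type arrays. Cd68 read 13.63, 13.62 and 13.60 on the vimentin-deficient and 13.68, 13.74 and 13.78 on the wild-type arrays. Of the 8, Cd14 alone was higher without overlap and Cd68 alone was lower. On vimentin-deficient replicate 3, where the family was highest, Fcgr1 read 11.70 against 9.98 and 10.21 on replicates 1 and 2. Mertk read 10.33 against 9.53 and 9.78, and Itgam was lower, at 9.60 against 10.62 and 10.49. The wild-type arrays read 9.82, 9.92 and 10.09 for Fcgr1, 9.88, 10.19 and 10.28 for Mertk, and 10.30, 10.41 and 10.34 for Itgam. For Mertk, vimentin-deficient replicates 1 and 2 were thus the lowest arrays, and replicate 3 was close to wild-type replicate 3. Of 50 markers in 8 lists of cell types 30 were tested and 0 passed with 6 arrays, where 0.0223% of all genes tested did. An unadjusted limma p under 0.05 was found for 3, and for 7.97% of all genes. Of the 30, 3 were higher and 5 lower without overlap, where 5.32% of all genes tested were higher and 10.1% lower. Without vimentin-deficient replicate 3, 1 rose, Cd14 (0.59), where 1.31% of all genes tested did. Plasmacytoid dendritic cells are strong producers of interferon. Of their 5 measured markers, Siglech lay near the filter level on every array, between 6.87 and 6.99. The 3 tested, Ccr9, Tcf4 and Bcl11a, had higher vimentin-deficient means, as did 39.6% of all genes tested. Their log2 fold changes were 0.05 (SE 0.05), 0.21 (SE 0.22; -0.03 without vimentin-deficient replicate 3) and 0.05 (SE 0.07). Ccr9 alone was higher without overlap, as were 5.32% of all genes tested. On the linear scale the summed value of the 5 measured markers of that list was 1910 to 2586 in vimentin-deficient and 1796 to 2103 in wild-type samples, with Tcf4 high on replicate 3 (10.67). The part of these shifts in the family's differences was not tested. The 3′ to 5′ difference of the Gapdh control probe sets, a sign of RNA quality, lay between -0.02 and 0.01 on all 6 arrays, and that of Actb between 0.18 and 0.23, highest on vimentin-deficient replicate 3.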

How the data were processed

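The analysis started from log2 probe set values as deposited by the authors, 1 per probe set and array. How these were summarised and normalised is stated in none of the sources used here. They run from 5.43 to 14.50 log2 units with array medians between 7.23 and 7.25, so they were used as deposited. Array number, 3 per genotype, limits the precision.

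Symbols came from the platform annotation and were updated by Entrez ID for 34741 of 34945 probe sets with 1 symbol. The brightest probe set by mean stood for a gene, and genes at or above the 40th percentile of non-control probe sets (6.93) were kept. All 13445 genes were fitted together in limma 3.58.1 (R 4.3.3; lmFit, eBayes with trend) as vimentin-deficient minus wild-type, with Benjamini-Hochberg adjustment over all of them. SEs are limma's moderated ones and SDs are between arrays. The fit was tested on simulated data without an outlying array, so that test does not cover the effect of vimentin-deficient replicate 3. The labels call the samples biological replicates, but do not state that each came from its own animal, so p-values measure the spread between these samples.

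Named genes are the members, the pathway lists, the 8 most similar profiles, the 5 nearest genes on each side of the member clusters, and Vim and cell type markers. The members and lists were chosen with earlier results of these data known. The ISRE and GAS search and the comparison of genes with and without the core were added after the values were seen. Promoters are RefSeq's (GRCm38.p6), searched with Python 3.11.15 and aligned with Biopython 1.88. Alternatives covered normalization, filter, probe set rule, variance model, array weights, replicate block and each array left out.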

Additional observations from a re-analysis of the deposited data

How the results depend on the processing

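The family stayed higher without overlap under the alternatives run, with 5 of 5 members in each except the 60th percentile filter, where Oasl1 was no longer tested and the count was 4. Of these alternatives, only those of normalization could have created overlap. The others leave the values of a member's 1 probe set as they were or drop an array. The number of members called was 0 as reported and 4 with array quality weights, where vimentin-deficient replicate 3 had a weight of 0.226 and 0.692% of all genes were called (52 higher and 41 lower); with 1 array left out it ran from 0 to 5, the 5 being without that array. The median log2 fold change of the members moved to 0.861 with array quality weights and ran from 0.84 to 1.60 with 1 array left out. Of the pathway genes 0 were called as reported, 4 with array quality weights and 0 to 8 with 1 array left out, the 8 again without vimentin-deficient replicate 3. Neighbouring genes gave 0 calls in each. No member changed sign, which likewise could only have happened with the alternatives of normalization. The labels do not state that the replicate numbers pair the samples. The correlation of deviations between same-numbered arrays was 0.50, -0.19 and 0.05. Between differently numbered arrays it ran from -0.50 to 0.41, so these values cannot decide it. With the number as a replicate block 0 members, 0 pathway genes and 0 genes of all were called, and the median log2 fold change was 1.29. Background signal limits the folds of dim probe sets such as Oasl1.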
